A study of Mus musculus with 18 samples.

Results

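Prostaglandin synthesis and receptor genes were followed in mouse cells and tissue with and without cyclin C. The set held 9 genes of the 17091 measured: the cyclooxygenases Ptgs1 and Ptgs2, the prostaglandin E synthases Ptges, Ptges2 and Ptges3, the prostacyclin synthase Ptgis, the prostaglandin D synthase Ptgds and the prostaglandin E receptors Ptger2 and Ptger4. The genes were chosen by name, with the measured KO minus WT differences and group levels of Ptges and Ptgs1 in these arrays in view, so those 2 genes are described without a test, and the other 7 were tested. Of Ptger4, which had a pair of probe sets, the brighter was used, and each other member had 1. RNA was hybridised to 18 single-colour expression arrays in 6 groups of 3 biological replicates, as the labels name them. The groups were cyclin C knockout (KO, genotype CCNC-/-) and wild-type (WT, named control in the titles) embryonic stem cells (ESC), primary embryonic fibroblasts (MEF) and E18.5 embryonic brain. The labels name no strain, passage, deletion design or number of embryos or clones behind a genotype, so p-values measure only the spread between these samples.

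Prostaglandins are short-lived lipid signals made from arachidonic acid, which phospholipases release from membranes. A cyclooxygenase turns arachidonic acid into prostaglandin H2, and a terminal synthase turns that into prostaglandin E2, prostacyclin or prostaglandin D2. Prostaglandin E2 acts on cell-surface receptors, of which those encoded by Ptger2 and Ptger4 raise cyclic AMP inside the cell. Fibroblasts are a textbook source of prostaglandin E2, and in brain the meninges are a known site of prostaglandin D synthase.

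Cyclin C activates the Mediator kinases CDK8 and CDK19. On the log2 scale of the arrays, its gene Ccnc averaged 6.93 ± 0.35 in KO ESC and 9.30 ± 0.17 in WT ESC, 8.27 ± 0.03 in KO MEF and 9.57 ± 0.03 in WT MEF, and 8.21 ± 0.15 in KO brain and 8.90 ± 0.30 in WT brain (SD, n = 3 each). The groups did not overlap in any cell type. Whether the Ccnc probes lie inside the deleted stretch is unknown here, and the signal left in KO is no measure of whole transcripts. The cell types carried their own markers in both genotypes: the mean of 6 stem cell markers was 12.54 to 13.26 in ESC and at most 7.15 elsewhere, that of 8 fibroblast markers was 13.28 to 13.48 in MEF and at most 9.80 elsewhere, and that of 7 neuronal markers was 12.43 to 12.78 in brain and at most 7.55 elsewhere. Replicate spread differed by cell type, with a median SD per gene of 0.164 in KO ESC and 0.149 in WT ESC, 0.0787 in KO MEF and 0.0644 in WT MEF, and 0.105 in KO brain and 0.117 in WT brain. KO ESC array 1 stood apart: its mean over 10 extraembryonic endoderm markers was 9.42, against 7.25 and 7.52 on the other KO ESC arrays and 7.21 to 7.57 on the WT ESC arrays.

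Of the 9 genes, 5 lie on chromosome 2 (RefSeq, GRCm38.p6), and 4 of these, Ptgds, Ptges, Ptges2 and Ptgs1, lie between positions 25466709 and 36258593. A promoter window is given for 3 of the genes that the results turn on, so that 1 start region of each cyclooxygenase and of Ptges can be seen side by side. Each run is the 250 bases just before 1 annotated transcription start, read 5′ to 3′ on the gene's own strand from RefSeq's GRCm38.p6 table. The annotated spans of Ptges and Ptgs1 reach further upstream, to positions 30931020 and 36216742, so these runs do not show every start of those genes. Capitals mark GC boxes, the letters GGGCGG or, on the other strand, CCGCCC. The windows are chr2:30903298-30903547 on the minus strand for Ptges, chr2:36230176-36230425 on the plus strand for Ptgs1 and chr1:150099781-150100030 on the plus strand for Ptgs2.
Ptges: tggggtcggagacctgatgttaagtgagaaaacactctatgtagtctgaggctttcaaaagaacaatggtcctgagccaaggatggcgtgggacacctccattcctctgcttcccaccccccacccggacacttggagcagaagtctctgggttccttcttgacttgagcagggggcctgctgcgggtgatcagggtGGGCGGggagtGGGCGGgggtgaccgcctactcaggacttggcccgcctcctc
Ptgs1: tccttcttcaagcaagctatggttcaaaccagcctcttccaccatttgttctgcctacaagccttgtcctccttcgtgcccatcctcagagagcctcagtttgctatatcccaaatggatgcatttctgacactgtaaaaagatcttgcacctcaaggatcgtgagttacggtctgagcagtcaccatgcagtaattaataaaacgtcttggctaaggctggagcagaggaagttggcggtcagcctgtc
Ptgs2: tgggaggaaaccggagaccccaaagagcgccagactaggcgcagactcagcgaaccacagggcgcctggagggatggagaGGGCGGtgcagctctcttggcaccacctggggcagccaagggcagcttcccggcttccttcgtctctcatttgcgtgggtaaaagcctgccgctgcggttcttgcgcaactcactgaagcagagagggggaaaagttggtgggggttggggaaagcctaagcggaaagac
The Ptges window held 2 GC boxes, starting 53 and 42 bases before the transcription start. The Ptgs2 window held 1, starting 170 bases before it, and the Ptgs1 window held none. Among 32851 such windows of 27025 genes, 32.7% held at least 1 GC box, and the share of G and C had a median of 52.4%, against 59.6% for Ptges, 48.0% for Ptgs1 and 61.6% for Ptgs2. Neither a TATA box (TATAAA, in 12.4% of windows) nor the core of a cyclic AMP response element (TGACG, in 17.8%) occurred on either strand of these 3 windows, which says only that these letters are not there.

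The cyclooxygenases carry out the first committed step. Ptgs1, the constitutive form in most tissues, read 9.26, 9.16 and 9.07 in KO MEF, against 10.09, 9.87 and 9.76 in WT MEF. Every KO MEF array lay below every WT MEF array, with a log2 difference of -0.74 (SE 0.09), or 0.597 of the WT signal. In brain Ptgs1 read 6.98, 6.83 and 6.82 in KO and 6.71, 6.75 and 6.73 in WT. There the KO arrays lay above the WT arrays by a mean of 0.15 (SE 0.08), the opposite side from MEF. In ESC the values were 6.87, 7.03 and 6.68 in KO and 6.70, 6.82 and 6.87 in WT, and the groups overlapped. Among the WT groups Ptgs1 stood highest in MEF, 3.11 above ESC (8.64-fold) and 3.18 above brain (9.05-fold), while brain and ESC differed by -0.07 (SE 0.10), within their spread. Outside MEF the Ptgs1 signal was dim, at the 21.1 to 26.3 percentile of genes in KO ESC and 20.3 to 22.3 in WT ESC. In brain it lay at the 22.1 to 25.1 percentile in KO and 21.2 to 22.3 in WT. Without a detection call, signal above background is not shown in ESC or brain, which limits the brain difference and both fold values. Since Ptgs1 was one of the genes for which the set was drawn up, these values are a description.

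Ptgs2, the inducible cyclooxygenase of inflammation and growth factor response, stood far higher in MEF than in the other cell types. It read 11.91, 11.87 and 11.94 in KO MEF, against 11.62, 11.83 and 11.70 in WT MEF. The KO MEF arrays all lay above the WT MEF arrays, but by only 0.19 (SE 0.06), and limma's p adjusted over all genes was 0.0602. The call turned on the setting: adjusted p was 0.0287 with the replicate number as a block and 0.0319 without WT MEF array 2. Ptgs2 thus did not follow Ptgs1, whose MEF values lay below WT in the same arrays. WT MEF exceeded WT ESC by 6.24 (limma adjusted p = 1.37e-11) and WT brain by 6.88 (adjusted p = 9.88e-12). Outside MEF the Ptgs2 signal was among the dimmest on the arrays, at the 6.1 to 8.1 percentile of genes in WT ESC and the 3.7 to 3.8 percentile in WT brain. The files give no detection call, so signal above background is not shown there, and these 2 differences can understate the change. In ESC it read 5.29, 5.07 and 5.43 in KO and 5.35, 5.45 and 5.64 in WT, overlapping groups with a difference of -0.22 (SE 0.13, limma adjusted p = 0.653). In brain it read 4.95, 4.96 and 4.90 in KO and 4.83, 4.82 and 4.86 in WT, groups that did not overlap but differed by 0.10 (SE 0.06, limma adjusted p = 0.746). WT brain lay below WT ESC by a log2 difference of -0.64 (limma adjusted p = 0.000131), a difference between signals neither of which is shown to be above background.

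**Figure D1:**
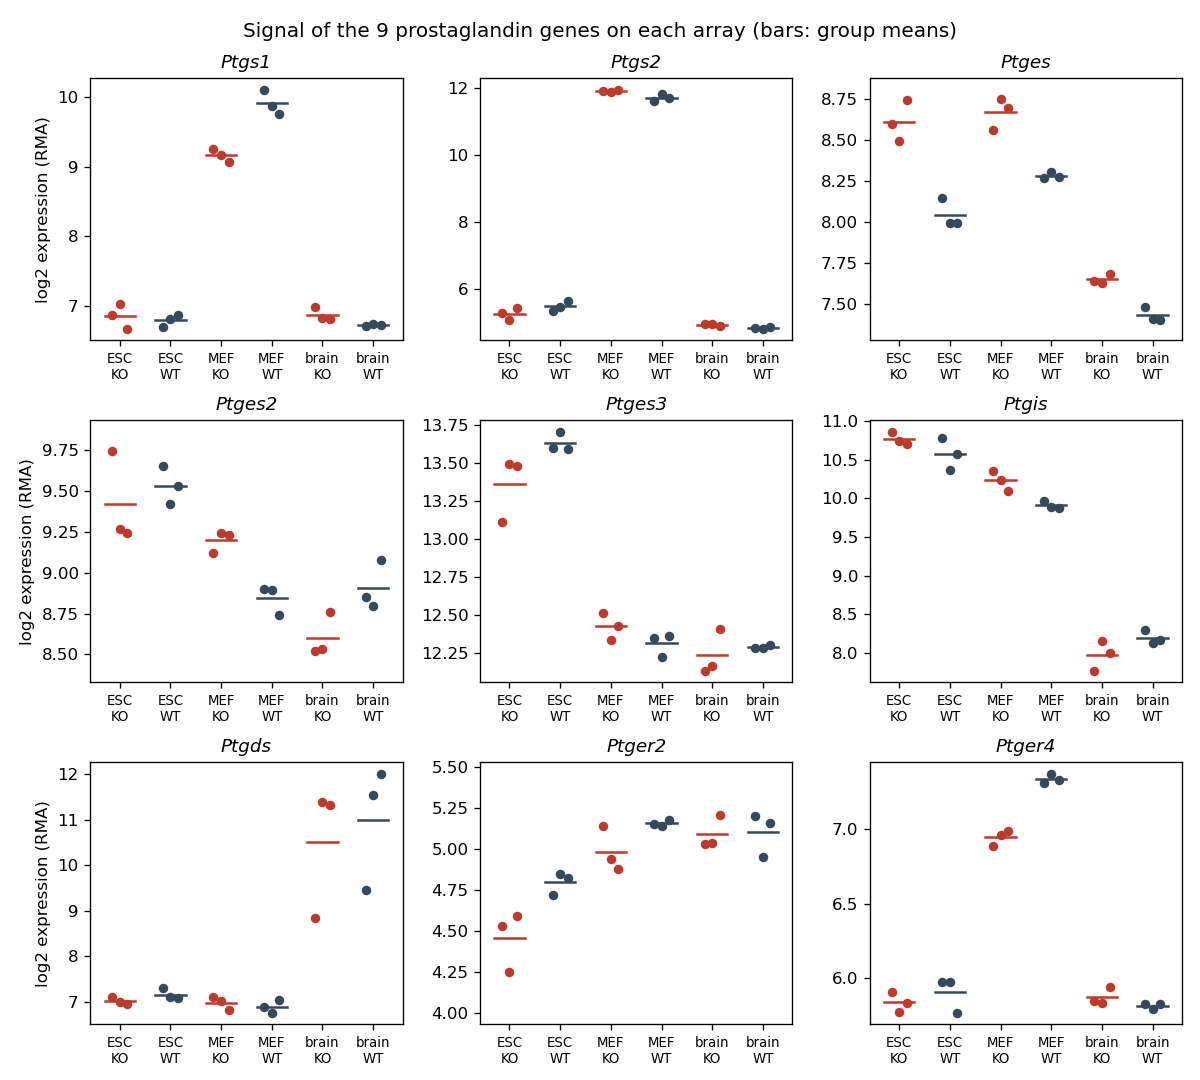
Log2 signal (RMA, vertical axes, each with its own range) of the 9 prostaglandin genes on each of the 18 arrays; red points are knockout and dark points wild-type arrays, and bars are means of 3. Ptgs1 and Ptgs2 stand high in both MEF groups, Ptgds in both brain groups, and the Ptges points of each knockout group lie above those of the wild type beside them.

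Ptges, the inducible microsomal prostaglandin E synthase that is usually paired with Ptgs2, was higher in KO than in WT on every array of all 3 cell types. It read 8.60, 8.49 and 8.74 in KO ESC, against 8.15, 7.99 and 7.99 in WT ESC, a log2 difference of 0.57 (SE 0.12, 1.48-fold). It read 8.56, 8.75 and 8.69 in KO MEF, against 8.27, 8.30 and 8.27 in WT MEF, a difference of 0.39 (SE 0.06, 1.31-fold). It read 7.64, 7.63 and 7.68 in KO brain, against 7.48, 7.41 and 7.40 in WT brain, a difference of 0.22 (SE 0.08, 1.16-fold). The groups did not overlap in any cell type. Of the 17091 genes, 19 (0.111%) had KO above WT without overlap in all 3 cell types, and 13 (0.0761%) had KO below WT; Ptges was one of the 19, and was chosen for that pattern. KO ESC array 1, with its high endoderm markers, read between the other KO ESC arrays for Ptges, and without both ESC arrays numbered 1 the ESC difference was 0.62. The mean of 6 simple epithelium markers was 12.74, 12.14 and 12.04 in KO ESC, against 12.16, 11.10 and 11.53 in WT ESC. All 6 had positive KO minus WT differences (median 0.62), none passed the test, the group means overlapped only through WT ESC array 1, and their part in the Ptges difference was not tested. WT Ptges levels ran in the order MEF, ESC, brain: WT MEF lay 0.24 (SE 0.08) above WT ESC and 0.85 (SE 0.08) above WT brain, with no overlap between any of these groups.

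The other prostaglandin E synthases did not share that pattern. Ptges2, a membrane-associated synthase, rose in MEF to 9.12, 9.24 and 9.23 in KO, against 8.90, 8.89 and 8.74 in WT, by 0.35 (SE 0.06, limma adjusted p = 0.00733). In brain all 3 KO arrays, at 8.52, 8.53 and 8.76, lay below the WT arrays, at 8.85, 8.79 and 9.07, but the difference of -0.30 (SE 0.11) did not pass (limma adjusted p = 0.639). In ESC the KO values of 9.74, 9.27 and 9.24 spanned the WT values of 9.65, 9.42 and 9.53, and KO array 1 was the highest of the 6. Ptges3, also known as the HSP90 co-chaperone p23, read 13.12, 13.50 and 13.48 in KO ESC and 13.60, 13.70 and 13.59 in WT ESC. These groups did not overlap, KO ESC array 1 was the lowest, and the difference of -0.27 (SE 0.12) did not pass (limma adjusted p = 0.591). In MEF Ptges3 averaged 12.43 ± 0.09 in KO and 12.32 ± 0.08 in WT, and in brain 12.24 ± 0.15 in KO and 12.29 ± 0.01 in WT (SD, n = 3 each), with overlap in both. Among WT groups both genes were highest in ESC. Ptges2 was lower by a log2 difference of -0.69 in WT MEF and -0.62 in WT brain relative to WT ESC (limma adjusted p = 0.000147 and 0.000222), and Ptges3 by -1.32 and -1.34 (adjusted p = 4.97e-08 and 2.08e-08). WT MEF and WT brain differed for neither as deposited (limma adjusted p = 0.626 for Ptges2 and 0.771 for Ptges3), but after quantile normalization Ptges3 was lower in WT MEF than in WT brain by a difference of -0.30 (adjusted p = 0.0061).

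Ptgis makes prostacyclin, the vasodilating and platelet-inhibiting prostanoid. It rose in MEF to 10.35, 10.24 and 10.10 in KO, against 9.96, 9.88 and 9.88 in WT, by 0.32 (SE 0.07, limma adjusted p = 0.0142), and the groups did not overlap. That call was lost without KO MEF array 2, WT MEF array 2 or WT MEF array 3 (adjusted p = 0.0596, 0.0547 and 0.0567), with differences of 0.31 to 0.32. In ESC Ptgis averaged 10.77 ± 0.08 in KO and 10.58 ± 0.21 in WT, and in brain 7.98 ± 0.19 in KO and 8.20 ± 0.09 in WT (SD, n = 3 each), overlapping in both cell types (limma adjusted p = 0.693 and 0.717). WT levels ran in the order ESC, MEF, brain, each step past the test: WT MEF minus WT ESC was -0.67 (limma adjusted p = 0.000242), and WT MEF minus WT brain was 1.71 (adjusted p = 1.04e-07).

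Ptgds, the lipocalin-type prostaglandin D synthase of meninges and choroid plexus, stood highest in brain. It read 8.84, 11.39 and 11.33 in KO brain, against 9.45, 11.55 and 12.00 in WT brain. It lay at 6.81 to 7.11 in KO MEF, 6.76 to 7.02 in WT MEF, 6.95 to 7.09 in KO ESC and 7.07 to 7.30 in WT ESC. Brain array 1 was far below the other 2 arrays in both genotypes, so the groups overlapped, and the KO minus WT difference of -0.48 had an SE of 0.78 (limma adjusted p = 0.918). KO was lower within each numbered pair, by differences of -0.61, -0.16 and -0.67. The numbers pair the brain arrays only on the evidence of the values, and leaving out single arrays moved the unpaired difference between -1.26 and 0.36, positive without KO brain array 1 (0.36) or WT brain array 3 (0.02). WT brain exceeded WT ESC by 3.85 (limma adjusted p = 3.43e-05), and WT MEF minus WT brain was -4.11 (adjusted p = 2.52e-05). Without WT brain array 1 these were 4.62 and -4.89, and without any other single array they were no smaller than 3.34 and -3.61 in size, with both calls kept. WT MEF and WT ESC did not differ by that fit (-0.27, SE 0.50), whose SE is widened by the brain arrays it shares.

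Among all 17091 genes, 2 were lower on brain array 1 than on the other 2 arrays of its group by more than 1 log2 unit in both genotypes: Ptgds and Frrs1l, which encodes an accessory protein of AMPA receptors and was singled out after its values were seen. Frrs1l read 7.20, 8.61 and 8.21 in KO brain, against 7.29, 9.34 and 8.49 in WT brain. Array 1 was the lowest of its group in both genotypes for 12.3% of all genes, for 5 of 7 leptomeningeal markers, 4 of 8 microglial markers and 0 of 6 choroid plexus markers. The mean leptomeningeal level was 7.45, 7.92 and 7.90 in KO brain and 7.57, 7.80 and 8.39 in WT brain. It was thus lowest on array 1 in both, by far less than Ptgds. In whole tissue, fewer cells of a type and less RNA per cell cannot be told apart, and the part of the leptomeningeal marker levels in the Ptgds values was not tested.

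**Figure D2:**
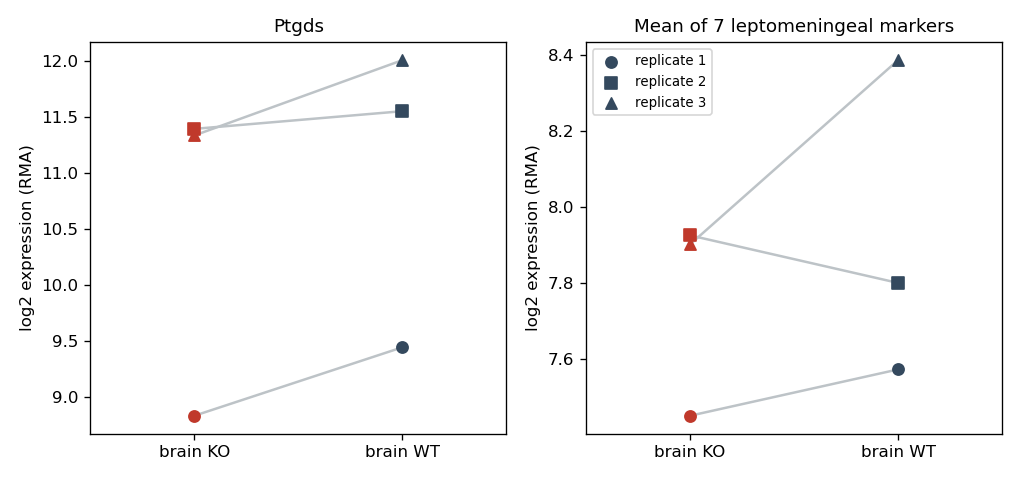
Log2 signal (RMA, vertical axes) in knockout (red) and wild-type (dark) brain of Ptgds on the left and of the mean of 7 leptomeningeal markers on the right; each symbol is 1 array, its shape gives the replicate number, and lines join the same number. Array 1 is lowest in both genotypes on both sides, at 8.84 in KO and 9.45 in WT for Ptgds and at 7.45 in KO and 7.57 in WT for the markers.

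The receptors were dim too: both Ptger2 and Ptger4 lay below the median gene on all 18 arrays, Ptger2 at the 6.1 percentile or lower, without a detection call. Ptger4, the EP4 receptor, fell in KO MEF to 6.88, 6.96 and 6.99, against 7.31, 7.36 and 7.32 in WT MEF. The groups did not overlap and differed by -0.39 (SE 0.06, limma adjusted p = 0.00485), or 0.763 of the WT signal. The second, dimmer Ptger4 probe set read 5.33, 5.49 and 5.35 in KO MEF and 5.78, 5.46 and 5.39 in WT MEF, and overlapped. With the mean of both sets the difference was -0.27 (limma adjusted p = 0.0416). Ptger4 averaged 5.84 ± 0.07 in KO ESC and 5.91 ± 0.12 in WT ESC, and 5.87 ± 0.06 in KO brain and 5.82 ± 0.02 in WT brain (SD, n = 3 each), with limma adjusted p = 0.869 in ESC and 0.881 in brain. Ptger4 was highest in MEF among the WT groups, by 1.42 over ESC (limma adjusted p = 1.07e-07) and 1.52 over brain (adjusted p = 4.22e-08), and WT brain and WT ESC did not differ by the test (adjusted p = 0.346).

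Ptger2, the EP2 receptor, read 4.53, 4.25 and 4.59 in KO ESC, against 4.72, 4.85 and 4.82 in WT ESC. All KO ESC arrays lay below the WT arrays, by -0.34 (SE 0.12), without passing the test (limma adjusted p = 0.547). In MEF it read 5.14, 4.94 and 4.88 in KO and 5.15, 5.14 and 5.18 in WT, also without overlap, with a difference of -0.17 (SE 0.08, limma adjusted p = 0.195). That p was 0.0428 without KO MEF array 1, with a difference of -0.25. In brain the groups overlapped and differed by -0.01 (SE 0.09, limma adjusted p = 0.990). WT ESC was lowest, below WT MEF by 0.36 (limma adjusted p = 0.00396) and below WT brain by 0.31 (adjusted p = 0.00832), while WT MEF and WT brain did not differ by the test (adjusted p = 0.618).

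Counted over the 7 tested genes, 2 rose (Ptges2, Ptgis), 1 fell (Ptger4) and 4 did not pass in KO MEF, where 12.0% of all genes were called (2058, of which 1216 or 7.11% rose and 842 or 4.93% fell). The median log2 difference was 0.11 over the 7 and 0.01 over all genes. None of the 7 passed in ESC, where limma called 2 of all genes (0.0117%) and 1446 had an unadjusted p below 0.05. None passed in brain, where 1 gene (0.00585%) was called and 1252 had an unadjusted p below 0.05. Over all 9 genes, KO and WT did not overlap for 7 in MEF, 3 in ESC and 5 in brain. The same held for 30.9% of all genes in MEF, 15.6% in ESC and 14.0% in brain, and since Ptges and Ptgs1 gave the reason for the set, nothing is read from those counts. Between WT groups, 6 of the 7 differed between MEF and ESC (3 higher and 3 lower in MEF), 4 between MEF and brain (3 higher, 1 lower in MEF) and 6 between brain and ESC (2 higher, 4 lower in brain). Of all genes, 63.5% were called between MEF and ESC (23.8% higher and 39.8% lower in MEF), 60.3% between MEF and brain (35.2% higher and 25.1% lower in MEF) and 73.7% between brain and ESC (25.9% higher and 47.8% lower in brain). Cell type and any batch of culture, dissection or hybridisation cannot be told apart in them.

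**Figure D3:**
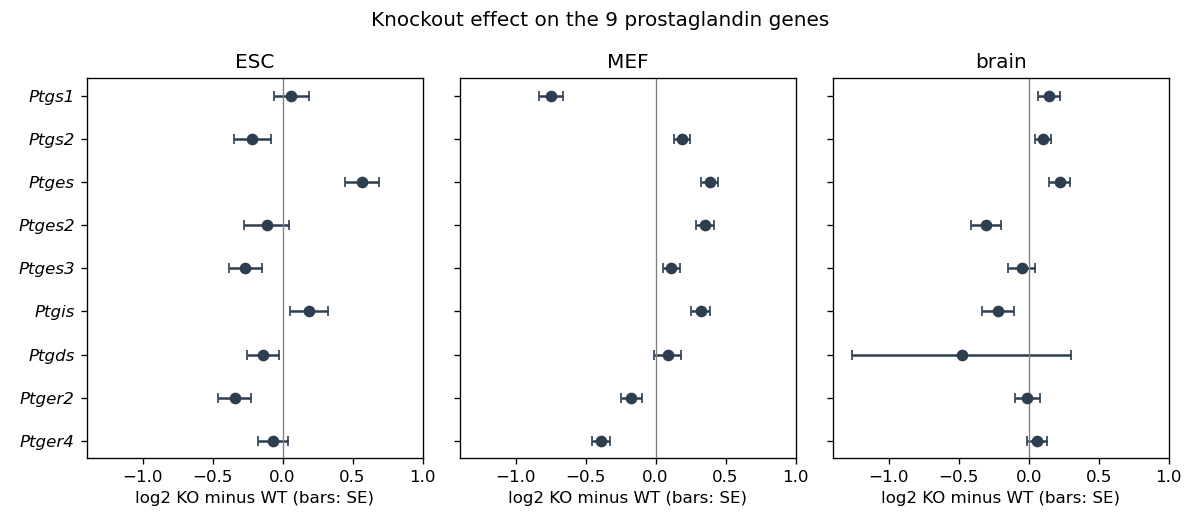
Log2 difference, knockout minus wild type (horizontal axes), of the 9 genes in ESC, MEF and brain; points are fitted differences of 3 against 3 arrays and bars are SE from limma. Ptges lies to the right of 0 in all 3 panels, Ptgs1 lies at -0.74 in MEF, and the Ptgds bar in brain spans an SE of 0.78.

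Whether a knockout effect differed between cell types was asked in 1 fit of all 18 arrays. None of the 7 tested genes passed for MEF minus ESC, MEF minus brain or brain minus ESC, comparisons in which 0.995%, 0.334% and 0.275% of all genes were called (170, 57 and 47 by limma, with 2434, 1674 and 2557 at an unadjusted p below 0.05). The nearest were Ptger4, whose effects differed by -0.45 (SE 0.11) for MEF minus brain (limma adjusted p = 0.0896), and Ptges2, whose effect was 0.66 (SE 0.17) higher in MEF than in brain (adjusted p = 0.136). The Ptges2 effect was 0.47 higher in MEF than in ESC (limma adjusted p = 0.222), and passed without KO ESC array 1 (0.63, adjusted p = 0.0326). As a description, the Ptgs1 effect in MEF lay -0.81 (SE 0.15) from that in ESC and -0.89 (SE 0.15) from that in brain. The Ptges effects lay within 0.35 of each other, with -0.35 (SE 0.11) for brain minus ESC.

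Around these 9 genes, 70 further genes of the pathway were measured in 6 lists that were drawn up with earlier results of these arrays known. In KO MEF 7 of the 70 rose and 7 fell, where 7.11% of all genes rose and 4.93% fell, and nothing particular to the list is read from these counts. In KO ESC and KO brain none of the 70 passed the test. Upstream of the cyclooxygenases, Pla2g4a, the cytosolic phospholipase that releases arachidonic acid, fell to 10.52, 10.20 and 10.45 in KO MEF, against 10.78, 10.92 and 10.69 in WT MEF, by a difference of -0.40 (SE 0.09, limma adjusted p = 0.0165). This call was lost without WT MEF array 2 (adjusted p = 0.0637). Cbr2, a carbonyl reductase, rose to 9.09, 9.28 and 9.65 in KO MEF, against 8.67, 8.40 and 8.79 in WT MEF, by 0.73 (SE 0.14, limma adjusted p = 0.00975). Mgll, which frees arachidonic acid from 2-arachidonoylglycerol, was higher by 0.49 (limma adjusted p = 0.0333), a call lost without any 1 of the MEF arrays except KO array 3 (adjusted p 0.0509 to 0.131). The other 11 of 14 measured synthesis genes did not pass.

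Downstream, beside 7.11% of all genes, 2 of 6 genes of breakdown and transport rose in KO MEF. They were Ptgr1, a reductase of prostaglandin metabolites, by 0.30 (limma adjusted p = 0.0262), and Abcc4, an exporter of prostaglandin E2, by 0.23 (adjusted p = 0.0462). The Ptgr1 call was lost without KO array 2 or 3 or WT array 1 or 2 (adjusted p 0.063 to 0.0951), and the Abcc4 call without any MEF array but KO array 1 (0.105 to 0.169). Of 9 other receptors 1 was called, beside 12.0% of all genes. Ptgfr, the receptor of prostaglandin F2 alpha, fell to 5.81, 5.81 and 5.94 in KO MEF, against 6.39, 6.32 and 6.38 in WT MEF. The difference was -0.51 (SE 0.07, limma adjusted p = 0.00222), and it kept its call without any single array. Ptgfr was dimmer than Ptger4 on every MEF array, also without a detection call. Ptgir, the prostacyclin receptor, averaged 6.21 in KO MEF and 6.59 in WT MEF without passing (-0.38, limma adjusted p = 0.0596).

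Of 11 measured genes that cyclic AMP induces in many cells, 4 fell in KO MEF and none rose. Of all genes, 4.93% fell and 7.11% rose there, and the list was drawn up with earlier results known. Ptger2 and Ptger4 signal into this pathway, but a part of the Ptger4 difference in these values was not tested. Pde4b, a cyclic AMP phosphodiesterase, fell to 8.73, 8.82 and 8.76 in KO MEF, against 9.47, 9.53 and 9.38 in WT MEF, by a difference of -0.69 (SE 0.06, limma adjusted p = 0.000309). Crem, a cyclic AMP-responsive transcription factor, fell by 0.57 (SE 0.10, adjusted p = 0.00704). The orphan nuclear receptors Nr4a2 and Nr4a1 fell by 0.37 and 0.25 (limma adjusted p = 0.00313 and 0.0159), the second call being lost without KO array 2 or WT array 1 or 2 (0.0559, 0.0518 and 0.0692). The median over the 11 was -0.16, against 0.01 over all genes. Among 18 inducers and controllers of prostaglandin enzyme transcripts, 3 rose and 1 fell in KO MEF, beside 7.11% and 4.93% of all genes. Nfkbia, the inhibitor of NF-kB, rose by 0.50 (SE 0.05, limma adjusted p = 0.00073), and Egr1, an immediate early transcription factor known to act on Ptges, fell to a mean of 11.74 in KO MEF, against 12.06 in WT MEF (limma adjusted p = 0.0122). Rela, an NF-kB subunit, and Zfp36, an RNA-binding protein that destabilises AU-rich mRNAs, were each higher by 0.19 (limma adjusted p = 0.0236 and 0.0426). Both calls were lost after quantile normalization (0.0714 and 0.0552), with no intensity trend (0.0577 and 0.0757) and without KO array 2 or 3 or WT array 2 or 3, with adjusted p of up to 0.167, and that of Zfp36 also without WT array 1 (0.108). None of 12 lipoxygenase and leukotriene genes passed. The smallest p-values there were those of Ltc4s, the leukotriene C4 synthase (0.20, limma adjusted p = 0.0515), and Ltb4r1, a leukotriene B4 receptor (0.38, adjusted p = 0.0553), both of which passed with the replicate block (0.0473 and 0.0165).

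**Figure D4:**
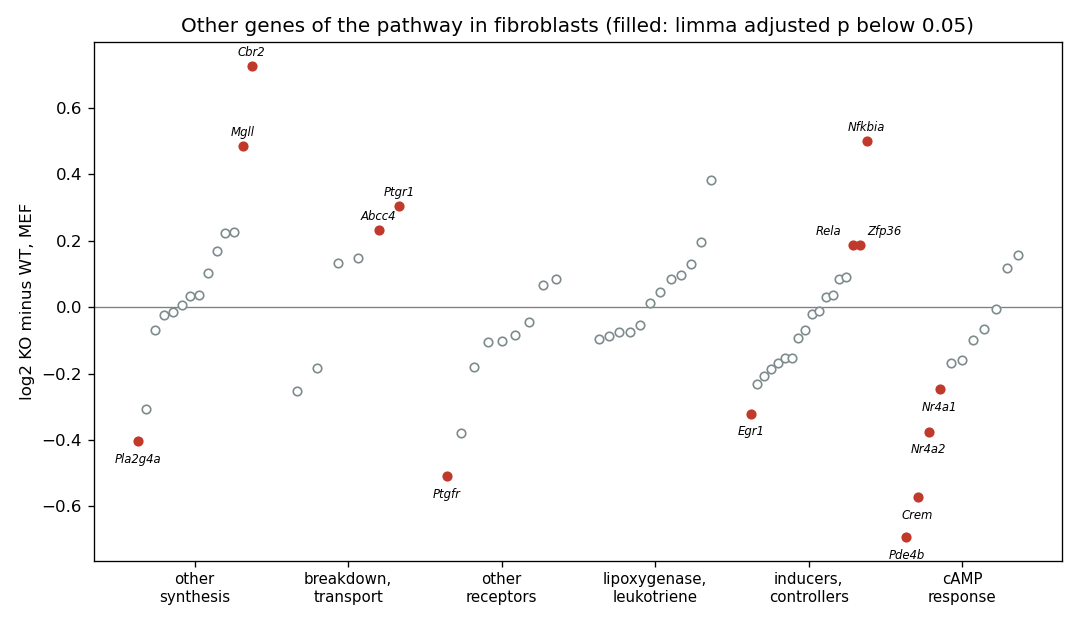
Log2 difference, knockout minus wild type in MEF (vertical axis), of the 70 other pathway genes in 6 lists, sorted within each list; red filled points have a limma adjusted p below 0.05 and are named. The 4 called cAMP response genes lie below 0, called points of the other lists lie above or below it, and no lipoxygenase or leukotriene gene is filled.

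Markers of other cells moved in the same MEF arrays, where 7.11% of all genes rose and 4.93% fell. The mean of 6 simple epithelium markers was 7.46, 7.57 and 7.42 in KO MEF, against 6.90, 6.96 and 6.94 in WT MEF, and 3 of the 6 rose (Krt8, Krt18 and Krt19). The mean of the 8 fibroblast markers was 13.28 to 13.37 in KO MEF and 13.40 to 13.48 in WT MEF, and 4 of the 8 fell by the test (Col3a1, Postn, Thy1 and Twist2), with a median log2 difference of -0.13. The mean of 7 smooth muscle and pericyte markers was 10.53, 10.50 and 10.34 in KO MEF, against 10.27, 10.22 and 10.14 in WT MEF, also without overlap. Of these 7, 2 rose (Myh11 and Cnn1) and 1 fell (Kcnj8), with a median of 0.22. Of 7 neuronal markers 1 rose and 2 fell, and of 7 leptomeningeal markers 1 rose and 1 fell. In addition, 1 of 7 endothelial, 1 of 6 radial glia and 1 of 5 platelet and megakaryocyte markers rose. The remaining marker lists held no call. The part of any of these marker shifts in the MEF results above was not tested.

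In KO ESC and KO brain some pathway genes stood clear of WT without passing the test over all genes. Egr1 read 7.93, 8.22 and 8.12 in KO ESC, against 10.92, 10.28 and 9.50 in WT ESC, a difference of -2.14 (SE 0.32, limma adjusted p = 0.295), and passed in 1 fit of all 18 arrays (adjusted p = 0.000138). Ptgr1 read 11.02, 11.54 and 11.99 in KO ESC, against 10.76, 10.65 and 10.78 in WT ESC, a difference of 0.78 (SE 0.23, limma adjusted p = 0.522, and 0.0183 in 1 fit of all 18 arrays). That fit also passed Sik1, a cyclic AMP-induced kinase (-0.46, limma adjusted p = 0.0132, against 0.522 in ESC alone), and Hpgds, the hematopoietic prostaglandin D synthase (-0.40, 0.044, against 0.547). It pools the ESC spread with the lower spread of MEF and brain. The median SD per gene was 0.149 and 0.164 in the ESC groups, against 0.0644 to 0.117 in the MEF and brain groups. The pooled fit called 632 of all genes in KO ESC, against 2 in ESC alone, so a pass there carries less weight for ESC. In brain the smallest p-values were those of Il6, a cytokine gene (0.21, limma adjusted p = 0.627), Pla2g2e, a secreted phospholipase (0.26, adjusted p = 0.627), and Cbr1, a carbonyl reductase (-0.28, adjusted p = 0.627). Those brain groups did not overlap, as was true of 14.0% of all genes. Il6 read at most 4.79 in brain, below every Ptgs2 value there, so its signal is not shown to be above background.

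The levels of the rest of the pathway were compared between the WT groups. Of the 70 genes, 27 were higher and 18 lower in MEF than in ESC, where 23.8% of all genes were higher and 39.8% lower. Between MEF and brain 37 were higher and 7 lower in MEF, where 35.2% of all genes were higher and 25.1% lower. Between brain and ESC 6 were higher and 35 lower in brain, where 25.9% of all genes were higher and 47.8% lower, and the count of lower genes is near that share. Pla2g4a, like Ptgs1 and Ptgs2, stood highest in MEF: it averaged 10.80 in WT MEF, against 6.21 in WT ESC and 5.41 in WT brain (differences of 4.59 and 5.38, limma adjusted p = 2.32e-09 and 4.03e-10). The secreted phospholipase Pla2g10 had the other order, at 7.64 in WT MEF and 7.60 in WT brain against 9.92 in WT ESC (limma adjusted p = 7.68e-09 and 3.03e-09). Receptors Ptgfr and Ptgir were higher in WT MEF than in WT ESC by 0.98 and 0.69 and than in WT brain by 1.11 and 0.85 (limma adjusted p of at most 0.000233). Abcc4 was highest in ESC, averaging 7.87 in WT MEF and 6.60 in WT brain against 10.58 in WT ESC. Ptgr1 averaged 10.80 in WT MEF and 7.87 in WT brain, against 10.73 in WT ESC.

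Of the 18 inducers and controllers, 13 were higher and 1 lower in WT MEF than in WT ESC, and likewise 13 and 1 against WT brain, beside the all-gene shares given above. Cebpb, a transcription factor that acts on Ptgs2, averaged 11.65 in WT MEF, against 9.56 in WT ESC and 6.71 in WT brain. Anxa1, which restrains phospholipase A2, averaged 14.21 in WT MEF, against 10.36 in WT ESC and 7.78 in WT brain, and Il6 was higher in WT MEF by 2.51 and 2.95 (limma adjusted p of at most 4.21e-08 for these 3 genes). Of 6 breakdown and transport genes, 5 were lower and none higher in WT brain than in WT ESC, a comparison in which 47.8% of all genes were lower. Mgll, the 2-arachidonoylglycerol lipase named above, had its highest WT level in brain, at 8.27 in WT MEF and 9.30 in WT brain against 7.99 in WT ESC.

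The genes whose pattern over the 18 arrays was most like that of Ptges or Ptgs1 were ranked by Pearson's r among 8499 genes whose group means spanned at least 1 log2 unit. For Ptges the first 5 were Plaur (r = 0.964), Tex264 (0.960), Prkcd (0.956), Tmem120a (0.955) and Dpp7 (0.952). Plaur, the urokinase receptor gene, averaged 10.94 in KO ESC and 10.07 in WT ESC, 11.65 in KO MEF and 10.91 in WT MEF, and 8.47 in KO brain and 8.21 in WT brain. For Ptgs1 they were Tnfrsf11b (0.994), Arsj (0.994), Mmp19 (0.994), Medag (0.993) and Rassf8 (0.993). Tnfrsf11b, which encodes osteoprotegerin, averaged 7.79 in KO MEF and 8.78 in WT MEF and lay between 4.57 and 4.86 in the other 4 groups. The 18 points of each r come from 3 cell types, and arrays of 1 cell type lie close together.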

How the data were processed

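RNA of 18 samples (6 groups of 3) was extracted with TRIzol and RNeasy columns, primed with oligo-dT and labelled with biotin, per the labels' protocols. The values are log2 expression values deposited by the authors, made with the robust multi-array average (RMA) according to the submitters' processing notes. The sources used here give no RMA version, array type or chip definition, nor whether the arrays were normalized jointly. Arrays have no read depth, and 3 per group limit the precision. Of 24121 transcript probe sets, 22560 matched 1 symbol of the RefSeq table (GRCm38.p6). The brightest probe set stood for each gene, giving 17091 genes, with no filter on dim genes.

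Each knockout was compared with its wild type in a fit of its own with limma 3.58.1 (R 4.3.3; lmFit, then eBayes with trend), the wild-type groups in 1 fit of 9 arrays in all, and differences of the knockout effect in 1 fit of 18. A gene was called where its p, adjusted by Benjamini-Hochberg over all genes, was below 0.05. SE is limma's moderated standard error. Fits of the knockout and WT comparisons, not those of the differences of effect, were run on simulated data with independent noise on each array. Shared deviations of same-numbered arrays and outlying arrays were not simulated, so that run says nothing about them. The members, lists and tests were chosen with earlier results of these data known. Named genes were all members, Ccnc, from each list the 4 smallest p-values at most (called genes first) and, for Ptges and Ptgs1, the 5 genes of highest r; the text gives some of them. Frrs1l and the second Ptger4 probe set fall outside this rule. Alternatives were quantile normalization, probe sets averaged per gene, dropping genes under the 40th percentile of mean signal, a robust prior, no trend, the replicate number as a block, 1 fit of 18 arrays, leaving out both ESC arrays numbered 1 and leaving out each array in turn. Same-numbered arrays deviated together (correlations of 0.36, 0.16 and 0.19 in MEF, 0.29, 0.35 and 0.47 in brain, 0.37, 0.32 and 0.08 in ESC). The numbers were taken as possible pairs in MEF and brain, from the values and not the labels, though the MEF correlations did not stand clear of those in ESC. The main fits and their p-values took no account of such pairs, and differently numbered arrays were not compared. Figures were drawn with matplotlib 3.10.9.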

Additional observations from a re-analysis of the deposited data

Results flagged for a closer look

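The knockout effect on 2 genes of the pathway differed between cell types by a test of the difference itself, and neither is one of the 9 members. Other genes, the member Ptges2 among them, passed only under some alternatives, given last. Egr1 had an effect 1.82 higher in MEF than in ESC (limma adjusted p = 0.0168) and 1.91 higher in brain than in ESC (adjusted p = 0.0241). Its KO minus WT difference was -2.14 in ESC, -0.32 in MEF and -0.23 in brain. The fit of these differences pools the spread of all cell types. The SD of Egr1 was 0.71 in WT ESC and 0.15 in KO ESC, against 0.06 to 0.22 in the MEF and brain groups. The pooled fit can thus understate the error of the ESC effect, which did not pass in ESC alone (limma adjusted p = 0.295). Both calls take in that ESC effect. The first call was lost without KO MEF array 2 (limma adjusted p = 0.053) or WT MEF array 2 (0.0581), and the second without KO brain array 1 (0.0697), KO brain array 2 (0.0689), WT brain array 1 (0.071) or WT brain array 3 (0.0517), with differences between 1.77 and 1.92.

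Ptgfr, dim in MEF and brain and without a detection call, had KO minus WT differences of -0.51 in MEF and 0.11 in brain. Its effect in MEF relative to brain was -0.62 (limma adjusted p = 0.0233). That call was lost without KO MEF array 2, WT MEF array 1, 2 or 3, KO brain array 1, or WT brain array 1 or 2 (limma adjusted p 0.0606 to 0.0864), with differences of -0.58 to -0.64. With the replicate block, Cbr2 for MEF minus ESC (1.04, limma adjusted p = 0.0418) and Ptgr1 for brain minus ESC (-1.06, adjusted p = 0.0451) passed as well. Without KO ESC array 1, Ptgr1 (-1.30, limma adjusted p = 0.00165), Sik1 (0.67, 0.0163) and Pde4b (0.67, 0.0436) passed for brain minus ESC, and Cbr2 passed for MEF minus ESC without KO ESC array 2 (1.17, 0.0353). The member Ptges2 passed for MEF minus ESC without KO ESC array 1 (0.63, limma adjusted p = 0.0326), against 0.47 (0.222) with all arrays.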

How the results depend on the processing

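All 16 member calls between WT groups held under every alternative that tested them. The filter on mean signal removed Ptgs2, Ptger2 and Ptger4, so it gave no result for their calls. It also removed Ptgs1, which was described without a test. In KO MEF, Ptger4 held under every alternative but that filter, which did not test it. Ptges2 and Ptgis were lost in 1 fit of all 18 arrays (limma adjusted p = 0.261 and 0.253), which pools the spread of all 3 cell types. Of the 14 other pathway calls in KO MEF, 4 held in each alternative that tested them (Pde4b, Crem, Nfkbia, Ptgfr). Of these 4, the filter removed Ptgfr and Crem, and among the other called genes it also removed Cbr2 and Pla2g4a. Of the calls that did not hold, 3 were lost only in the fit of all 18 arrays (Nr4a2, Egr1, Cbr2) and 7 on leaving out single arrays. Quantile normalization turned these differences near 0: Ptger4 in KO ESC to 0.0196, Ptges3 in KO brain to 0.0167, Ptgs1 and Ptger4 for WT brain minus WT ESC to 0.0052 and 0.0212, and the Ptgs1 and Ptger4 effects for brain minus ESC to -0.032 and -0.0032. It also turned Ptges3 for WT MEF minus WT brain to -0.30, and the cause was not tested. It moved the median gene by 0.10 for WT MEF minus WT ESC and by 0.15 for WT brain minus WT ESC. It moved the calls in KO MEF to 1057 up and 1087 down (1216 and 842 as deposited), those of WT brain minus WT ESC to 5527 and 6642 (4435 and 8166), and those of the MEF minus ESC difference to 54 and 106 (76 and 94).

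Leaving out single arrays moved the sign of Ptgs1 in KO ESC (-0.0232 to 0.15), Ptgds in KO brain (-1.26 to 0.36), Ptger2 in KO brain (-0.0867 to 0.0397) and, between WT MEF and WT brain, Ptger2 (-0.0228 to 0.10) and Ptges2 (-0.12 to 0.0217). It also moved the sign of the differences of effect in Ptgds (-0.28 to 1.34 for MEF minus brain, -1.12 to 0.50 for brain minus ESC) and Ptgs1 (-0.0044 to 0.17 for brain minus ESC). Over all genes, the 2 calls in KO ESC became 1 with the mean of probe sets, the 40th percentile filter or the replicate block, 632 in 1 fit of 18 arrays, 6 without both ESC arrays numbered 1 and 0 to 6 without single arrays. The 2058 in KO MEF became 210 in 1 fit and 900 to 2609 without single arrays. The 1 in KO brain became 0 in 1 fit and 1 to 2 without single arrays. The 12601 for WT brain minus WT ESC became 8289 with the filter, which tests fewer genes. For differences of effect, the 47 for brain minus ESC became 25 after quantile normalization, and without single arrays counts ran from 9 to 220, for MEF minus ESC from 30 to 391 and for MEF minus brain from 6 to 68.

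With the replicate number as a block, limma called 2960 genes in KO MEF and 15 in KO brain. Ptgs2 in KO MEF passed (adjusted p = 0.0287), as did Ccnc in KO brain (0.0426), and no other member changed its call. In ESC the third pair correlated at 0.08, and the numbers were not taken to pair the arrays, though the other ESC pairs correlated at 0.37 and 0.32. The MEF pairs, at 0.36, 0.16 and 0.19, did not stand clear of these, so the block results in MEF rest on an uncertain pairing. The Ccnc call in KO ESC was lost with the block (adjusted p = 0.0677), with the mean of probe sets (0.0733), without both ESC arrays numbered 1 (0.0536) and without KO array 2 (0.299) or WT array 1 (0.21), 2 (0.231) or 3 (0.11), with differences of -1.76 to -2.44.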
